A study of Drosophila melanogaster with 5 samples.

Results

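The transcripts described here encode subunits of the mitochondrial respiratory complexes III, IV and V, cytochrome c, and copies of these subunits, in testis ribosomes of Drosophila melanogaster. The genes were found by their names: symbols starting with COX and a digit, UQCR or ATPsyn, or equal to Cyt-c-p, Cyt-c-d, Cyt-c1, RFeSP, cype, blw, bb8 or knon. The deposited table uses older symbols for most of them. The rule was therefore applied both to the listed name and to the current symbol of each gene, which gave 32 of 12847 rows. The rows hold 12782 distinct identifiers, and each row is counted as a gene below. The listed names alone gave 5 (blw, cype, Cyt-c-d, Cyt-c-p and RFeSP). A further 16 genes whose current symbols meet the rule, such as COX4, COX5B, COX6B, ATPsynbeta and ATPsynD, were not analysed here.

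Testes of 1000 per extract came from Batumi males kept at 25 °C, whose age the labels give as 1 to 2 without a unit. Both groups are ribosomes pelleted from such extracts in the presence of cycloheximide. In the βNACtes IP (3 libraries) these ribosomes were precipitated with antibodies to βNACtes, the germline form of the β chain of NAC, a complex that binds nascent proteins at the ribosome. Total ribosomes (2 libraries) were not precipitated, and mitochondria had been spun out of both. The deposited table holds 1 mean per group and gene, treated as FPKM (fragments per kilobase of transcript, scaled to library size), so no replicate error, depth or test can be given for any value, and differences below are descriptions of these means. Such bulk values cannot tell fewer cells of a type from less RNA per cell.

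Complex III (cytochrome bc1) passes electrons from ubiquinol to cytochrome c, a small soluble carrier, and complex IV (cytochrome c oxidase) passes them on to oxygen. Both pump protons, and complex V (ATP synthase) uses the resulting gradient to make ATP. In Drosophila spermatids the mitochondria fuse into the nebenkern, which unfurls along the growing sperm tail, and many mitochondrial proteins have a copy encoded by a separate gene that is used mainly in the male germline. In what follows "testis copies" are the 9 genes named as such by the rule (COX4L, COX5BL, COX6AL, COX6CL, COX7AL, ATPsynbetaL, Cyt-c-d, bb8 and knon), "other copies" are 8 further genes whose symbols end in L or in L and a digit, and "usual subunits" are the remaining 15. Only testis ribosomes were sequenced, so use in other tissues was not examined.

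Relative to the median gene, the 15 usual subunits of the rule were lower in the βNACtes IP than in total ribosomes. Of the 17 copies, 12 lay above each of these 15. Each ratio is a difference of log2(FPKM + 0.1), with total ribosomes subtracted from the βNACtes IP, and is given relative to the median of 0.73 over the 9793 genes with a mean of both groups of at least 1 FPKM, which all 32 genes passed. A gene at −1 or less is called lower and at 1 or more higher (a change of 2-fold). The usual subunits had a median of −1.87 (from −3.50 to −0.73). In all 15 the value was below 0, 12 were called lower and 0 higher. The background was 29.2% of all genes called lower and 26.4% called higher. This result depends on the centre: with the deposited values as they are, 14 of the 15 were below 0 and 8 called lower (median −1.13), and with each group scaled to the same sum (TPM) 9 were below 0 and 3 called lower (median −0.30). None was called higher with either. The 9 testis copies had a median of 0.35 (from −1.40 to 1.24), with 1 called lower, 2 higher and 6 between, and the 8 other copies had a median of −0.30 (from −2.91 to 3.00), with 3 lower and 1 higher.

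Against the 23 other genes of the rule, whose median was −1.37, the testis copies were 1.73 higher on the log2 scale. The highest usual subunit of the rule was ATPsynE at −0.73, and 7 of the 9 testis copies and 5 of the 8 other copies lay above it. Of usual subunits outside the rule, ox (−0.54) also lay above ATPsynE, whereas levy (−2.62) and sun (−1.50) lay below it. Over all 32 genes the median was −1.01, with 16 called lower and 3 higher. These counts moved with those of all genes when the centre was changed. With the deposited values as they are, 10 were lower and 7 higher, against 18.3% and 43.6% of all genes. With TPM scaling 4 were lower and 12 higher, against 8.75% and 62.1% of all genes. Relative to genes of similar exonic length 13 were lower and 6 higher, against 27.3% and 25.1%. The distance between testis copies and the other genes was 1.73 with each of the first 2 scalings and 1.91 with the third. The first 2 move all genes by nearly the same amount, so this distance could not change with them. With 1 mean per group none of these distances can be set against the spread between libraries.

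**Figure D1:**
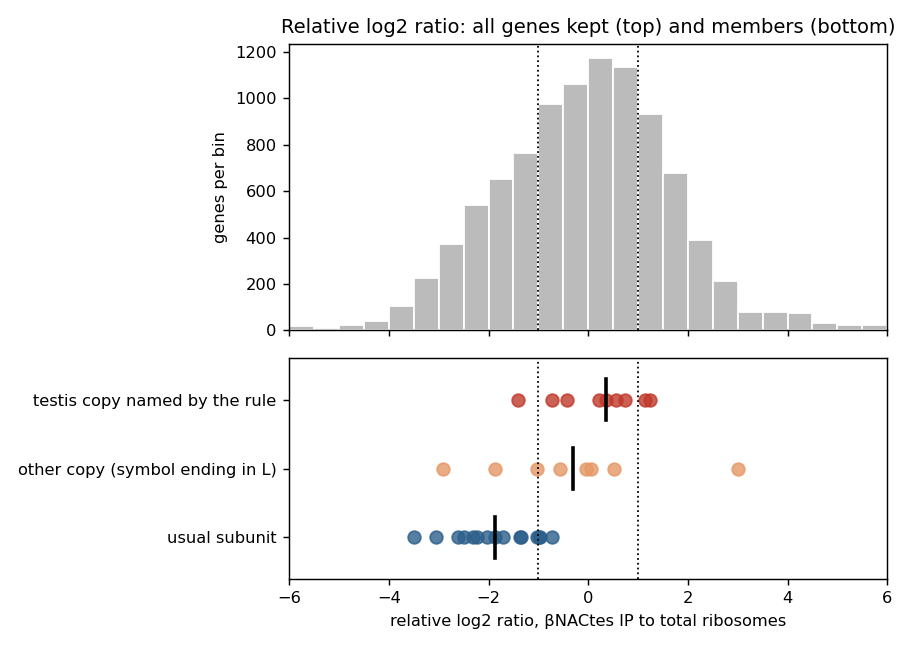
The upper panel counts all 9793 genes kept by their relative log2 ratio of the βNACtes IP to total ribosomes (genes beyond 6 in either direction lie outside the axis), and the lower panel shows each of the 32 genes as a point with the median of its class as a black bar. Dotted lines mark −1 and 1. The usual subunits lie between −3.50 and −0.73, and the testis copies between −1.40 and 1.24.

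Complex III was represented by 7 usual subunits and 3 copies. All 7 usual subunits were called lower, against 29.2% of all genes, with a median of −2.02. The 3 copies, with a median of −0.04, lay above each of them. The complex III subunit ox, outside the rule, stood at −0.54, above the copy UQCR-14L. UQCR-14, a small subunit of the complex, had 743 FPKM in total ribosomes and 109 FPKM in the βNACtes IP. Its relative ratio of −3.50 was the lowest of the 32 genes, and 3.06% of all genes kept were lower. Its copy UQCR-14L had 126 FPKM in total ribosomes and 142 FPKM in the βNACtes IP (−0.56).

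Cyt-c1, the haem-carrying subunit that hands electrons to cytochrome c, had 104 FPKM in total ribosomes and 28.0 FPKM in the βNACtes IP (−2.62). UQCR-6.4 had 511 and 150 FPKM (−2.50), whereas its copy UQCR-6.4L had 48.9 and 117 FPKM (0.53). UQCR-Q, with 1457 FPKM the most abundant of the 32 transcripts in total ribosomes, had 595 FPKM in the βNACtes IP (−2.02). Before any centring, these 4 usual subunits had 2.45 (UQCR-Q) to 6.83 (UQCR-14) times as much FPKM in total ribosomes as in the βNACtes IP. All exons of UQCR-14 overlap CG32576 on the opposite strand (25.4 and 15.3 FPKM), and 40.5% of UQCR-6.4 overlaps POSH (0 and 2.76 FPKM).

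The iron-sulfur protein RFeSP had 588 FPKM in total ribosomes and 299 FPKM in the βNACtes IP (−1.70). Among the usual subunits of complex III the large core proteins differed least: UQCR-C2 had 558 and 365 FPKM (−1.34) and UQCR-C1 had 642 and 519 FPKM (−1.04). UQCR-11L, a copy of the hinge subunit, had 123 FPKM in total ribosomes and 199 FPKM in the βNACtes IP (−0.04), and its partner was not analysed here.

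The genes for cytochrome c lay on opposite sides of the median gene, but with TPM scaling both were above 0 (Cyt-c-p 0.58, Cyt-c-d 2.71). Cyt-c-d, which is required for the caspase activity of sperm individualization, had 212 FPKM in total ribosomes and 780 FPKM in the βNACtes IP (1.15, called higher). Cyt-c-p, the cytochrome c of respiration in most cells, had 66.8 and 55.9 FPKM (−0.99). Cyt-c-d was the more abundant in both groups, 3.18 times Cyt-c-p in total ribosomes and 13.95 times in the βNACtes IP. Together they had 279 FPKM in total ribosomes and 836 FPKM in the βNACtes IP. The genes are neighbours on chromosome arm 2L, 296 bp apart with no gene between them in the BDGP6 annotation, and 36.4% of the exonic sequence of Cyt-c-d overlaps CG31808 on the opposite strand.

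**Figure D2:**
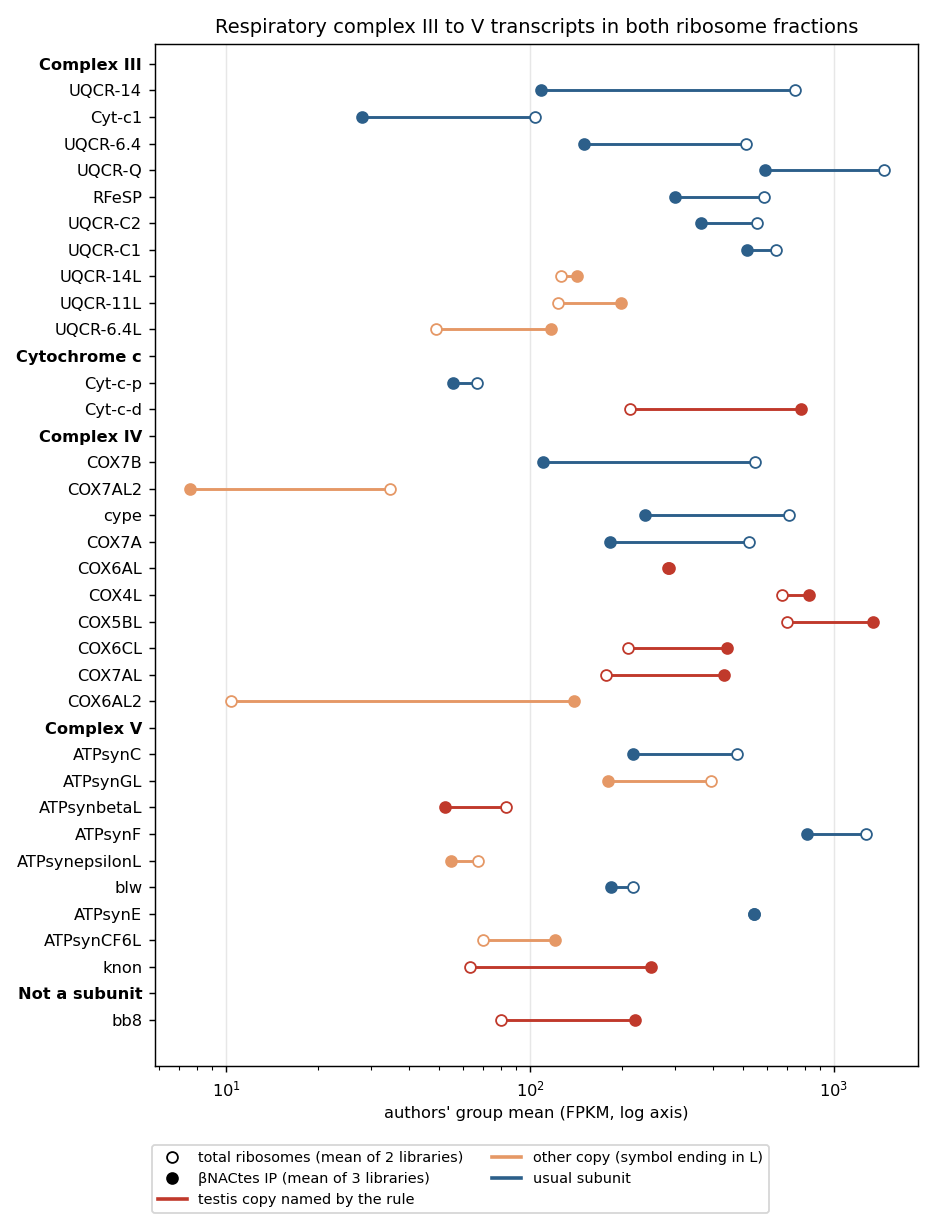
Each of the 32 transcripts is shown by the authors' mean in total ribosomes (open circle, 2 libraries) and in the βNACtes IP (filled circle, 3 libraries), in FPKM on a log axis, with the line coloured by class. In complexes III and IV the usual subunits have their filled circle to the left of the open one, whereas 3 of 3 copies in complex III have it to the right.

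Complex IV had the widest range, with 3 usual subunits and 7 copies. Its upper end was COX6AL2 (3.00), whose value may include reads of the overlapping gene Ir75d, and the next highest was COX7AL (0.56). The usual subunits were all called lower, against 29.2% of all genes. COX7B had 551 FPKM in total ribosomes and 111 FPKM in the βNACtes IP (−3.05), cype, the COX6C subunit, had 711 and 238 FPKM (−2.31), and COX7A had 523 and 184 FPKM (−2.24). All 5 testis copies of this complex lay above them, and 3 of the 5 were above the median of all genes.

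COX5BL had 700 FPKM in total ribosomes and 1345 FPKM in the βNACtes IP (0.21), the highest value of the 32 genes there and rank 63 of the whole table. COX4L was second among these genes in the βNACtes IP, with 673 FPKM in total ribosomes and 830 FPKM in the IP (−0.43). The usual COX4 and COX5B were not analysed here, so no share of the copies can be given. COX5BL lies 122 bp from COX5B on 2L, and all of its exons overlap those of Trmt6 on the opposite strand.

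COX6CL had 210 FPKM in total ribosomes and 444 FPKM in the βNACtes IP (0.35), and COX7AL had 177 and 435 FPKM (0.56). Both were less abundant than their partner in total ribosomes and more abundant in the βNACtes IP: COX6CL was 0.295 and 1.86 times cype, and COX7AL 0.338 and 2.37 times COX7A. COX6AL had 285 and 284 FPKM (−0.74), with its partner levy, a COX6A subunit outside the rule, at 686 and 185 FPKM (−2.62).

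The other copies of complex IV lay far apart. COX6AL2 had 10.4 FPKM in total ribosomes and 139 FPKM in the βNACtes IP, a relative ratio of 3.00 above which only 3.77% of all genes lay. COX7AL2 had 34.7 and 7.57 FPKM (−2.91), the lowest value of the 32 genes in the βNACtes IP. In the annotation used here, 67.0% of the exonic sequence of COX6AL2 is shared with Ir75d, an ionotropic receptor gene on the same strand, which had 8.26 FPKM in total ribosomes and 48.5 FPKM in the βNACtes IP. Reads of these genes may not be separable, and the part of Ir75d in the value of COX6AL2 was not tested.

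In the COX6A subunit, levy made up 69.9% of the summed FPKM in total ribosomes, COX6AL 29.1% and COX6AL2 1.06%. In the βNACtes IP these shares were 30.4%, 46.7% and 22.9%. The shares of COX6A carry the limit given above for reads of Ir75d. In the COX7A subunit, COX7A made up 71.2%, COX7AL 24.1% and COX7AL2 4.72% in total ribosomes, against 29.3%, 69.5% and 1.21% in the βNACtes IP. Summed over its genes, COX6A had 608 FPKM in the βNACtes IP and 982 FPKM in total ribosomes, and COX7A had 626 and 735 FPKM. As a share of the sum of each column the order was the reverse, with 0.0758% and 0.0684% for COX6A and 0.0780% and 0.0512% for COX7A.

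Complex V was represented by 4 usual subunits and 5 copies, whose medians were close (−1.17 and −1.03). ATPsynC, which forms the membrane rotor ring, had 479 FPKM in total ribosomes and 218 FPKM in the βNACtes IP (−1.87). ATPsynF, a small membrane subunit, had 1273 and 815 FPKM (−1.37), and blw, the head subunit α, had 218 and 184 FPKM (−0.97). ATPsynE, also a small membrane subunit, had 543 and 545 FPKM (−0.73).

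Of the copies of complex V, knon was the highest. This testis-specific relative of the peripheral stalk subunit d, needed for the shape of spermatid mitochondria, had 63.5 FPKM in total ribosomes and 249 FPKM in the βNACtes IP (1.24, called higher). ATPsynbetaL, a copy of the catalytic subunit β, went the other way with 83.4 and 52.4 FPKM (−1.40, called lower). ATPsynCF6L had 69.7 and 120 FPKM (0.06).

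Among the remaining copies of complex V, ATPsynGL had 394 FPKM in total ribosomes and 180 FPKM in the βNACtes IP (−1.86). ATPsynepsilonL had 67.2 and 54.7 FPKM (−1.03). With ATPsynbetaL, these were the copies of complex V called lower, so 3 of its 5 copies were, against 29.2% of all genes. With TPM scaling none of the 3 was called lower: ATPsynbetaL (0.17) and ATPsynepsilonL (0.54) were above 0 and ATPsynGL (−0.29) below.

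bb8 is named by the rule but is a glutamate dehydrogenase of spermatid mitochondria and no subunit of a respiratory complex. It had 80.4 FPKM in total ribosomes and 221 FPKM in the βNACtes IP (0.73). Its usual relative Gdh had 36.1 and 26.3 FPKM (−1.19). Without bb8 the testis copies were 1.66 above the other genes.

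Pairs of a copy and its usual partner were compared within each group, where any scaling of a whole group cancels apart from the pseudocount. Of the pairs in the main list, 8 had values for both genes. None of these is of complex V, since the partners of its listed copies were not analysed here. In all 8 the ratio of copy to partner was higher in the βNACtes IP than in total ribosomes. The median change was 2.73 on the log2 scale (6.64-fold), from 1.89 for COX6AL with levy to 5.63 for COX6AL2 with levy. The value of COX6AL2 may include reads of Ir75d, and the next highest of the 8 was Cyt-c1L with Cyt-c1 (3.05). The copy was the more abundant in 2 pairs in total ribosomes and in 7 pairs in the βNACtes IP. The pairs share some genes, since levy stands in 2 of them, and both groups are the same libraries throughout, so they are not independent. The main list was itself chosen with earlier results of these data known.

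By share of the pair, COX7AL made up 25.3% of the sum with COX7A in total ribosomes and 70.3% in the βNACtes IP. COX6CL made up 22.8% and 65.0% of the sum with cype, UQCR-14L 14.5% and 56.7% of the sum with UQCR-14, and Cyt-c-d 76.1% and 93.3% of the sum with Cyt-c-p. Cyt-c1L, a copy of cytochrome c1 outside the rule, made up 48.4% and 88.6% of the sum with Cyt-c1, with 97.3 FPKM in total ribosomes and 218 FPKM in the βNACtes IP.

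In 3 pairs added after the values were seen the pattern was mixed. UQCR-6.4L made up 8.73% of the sum with UQCR-6.4 in total ribosomes and 43.7% in the βNACtes IP. ATPsynepsilonL, in the only pair of complex V, made up 61.7% and 69.1% of the sum with sun, the usual subunit ε (a change of 0.47 on the log2 scale). COX7AL2 made up 6.21% and 3.96% of the sum with COX7A, the only one of the 11 pairs in which the copy was relatively lower in the βNACtes IP (−0.67 on the log2 scale).

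**Figure D3:**
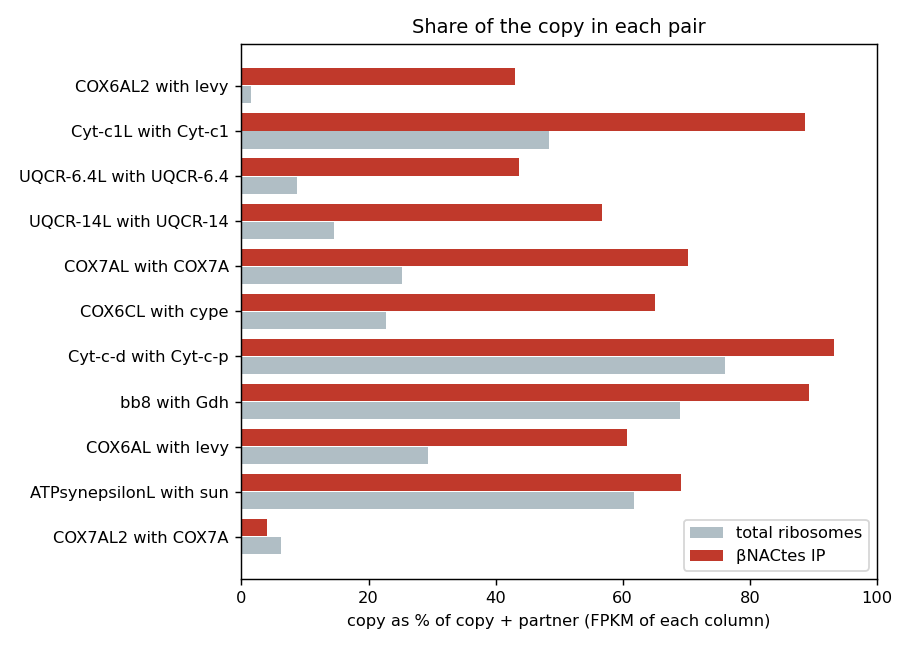
Bars give the FPKM of the copy as a percentage of copy plus partner, in total ribosomes (grey) and the βNACtes IP (red), for the 8 pairs of the main list and 3 added after the values were seen (UQCR-6.4L, ATPsynepsilonL, COX7AL2). COX7AL stands at 25.3% and 70.3%, whereas COX7AL2 stands at 6.21% and 3.96%.

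Gene structure and place were described without a test. Of the 17 copies, 0 lie on the X chromosome and 4 have a single exon block in the BDGP6 annotation (COX4L, COX6AL, UQCR-14L and UQCR-11L), against 0 of the 15 usual subunits. UQCR-14 is the only X-linked gene of the 32. COX7AL and COX7A lie 2625 bp apart on 3R with 2 annotated genes between them. Exonic length was similar in both classes, with a median of 635 bp in the copies and 720 bp in the usual subunits.

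Across the whole table, short genes had lower ratios than long ones. When all genes were cut into 10 equal groups by exonic length, the shortest (76 to 637 bp) had a median of −0.85 and held 14 of the 32 genes. The longest had a median of 1.23 and held 0. Relative to the median of their own length group, all 15 usual subunits were still below 0, with a median of −1.46 (from −2.65 to −0.22). Of the 17 copies 13 were then above 0, with a median of 0.81, and 8 of the 9 testis copies lay above each of these 15. Of usual subunits outside the rule, ox was then at 0.31, and levy (−1.77) and sun (−0.65) were below 0. COX7AL2 (−2.41), ATPsynbetaL (−1.37), ATPsynGL (−1.01) and ATPsynepsilonL (−0.18) were the copies below 0.

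**Figure D4:**
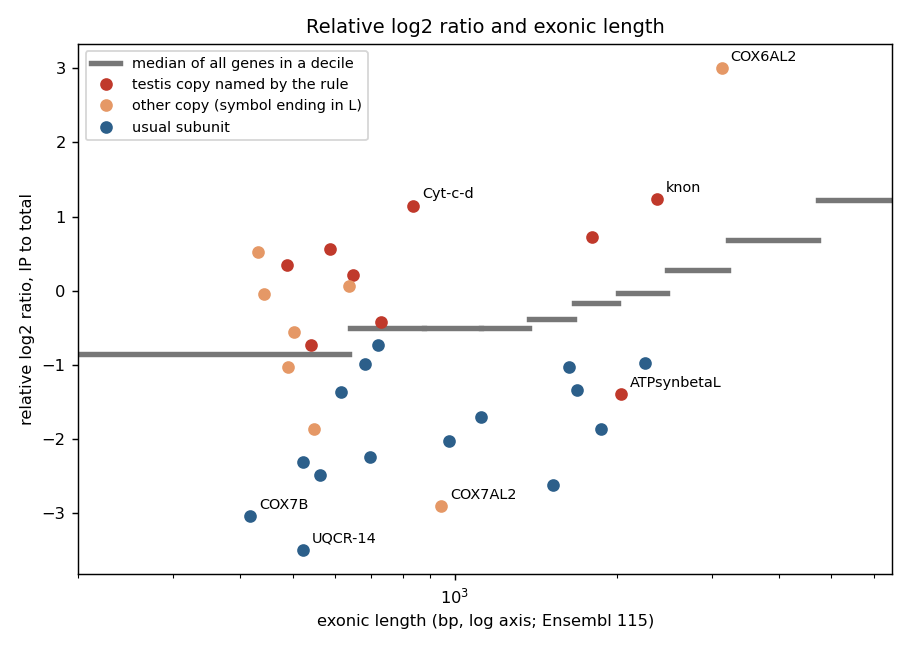
The relative log2 ratio of each of the 32 genes is plotted against its exonic length in bp on a log axis, and grey bars are the median of all genes in each of 10 groups of length (the shortest and the longest group run past the edges). The 15 usual subunits lie below the bar of their length, whereas 13 of 17 copies lie above it.

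Transcripts of other cells differed between the groups, and the lists of somatic markers went opposite ways (median −2.62 for accessory gland genes). The 46 accessory gland genes found by name (Acp and Sfp symbols, and SP) had a summed level of 38507 FPKM (4.80% of the sum of the column) in the βNACtes IP and 165689 FPKM (11.5%) in total ribosomes, and 43 were called lower, 0 higher and 0 stood at 0. Germline markers, 23 of 27 named, summed to 19357 FPKM in the βNACtes IP and 9875 FPKM in total ribosomes. Of these, 6 were called higher and 3 lower, with a median of −0.14, against 26.4% and 29.2% of all genes. Muscle sheath markers (9 of 10) summed to 435 and 209 FPKM, with 3 called higher, 1 lower and a median of 0.62. Markers of cyst and hub cells (6 of 7) summed to 21.2 and 8.96 FPKM, with tj at 0 in total ribosomes. Of the 5 cyst and hub markers kept by the filter, 3 were called higher and 1 lower, with a median of 1.35. The shares of all genes, 26.4% higher and 29.2% lower, are the background for the accessory gland, muscle, cyst and hub counts too. The part of accessory gland RNA in the lower values of the usual subunits was not tested.

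Complex I, the first pump of the chain, had the same order of class medians in side-by-side values. Its 26 usual subunits had a median of −1.89, with 23 called lower and 0 higher. Its 6 copies ending in L had a median of −0.61, with 2 lower and 0 higher. Of all genes, 29.2% were called lower and 26.4% higher. The copies called lower were ND-51L1 (−2.28) and ND-24L (−1.94). ND-24L lay below ND-24 (−1.87), whereas each of the other copies lay above the usual subunit of the same name. ND-B14.5B (−2.64) and ND-B14.7 (−2.58) were its lowest and ND-B8 (0.19) and ND-49L (0.19) its highest genes.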

How the data were processed

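RNA of testis ribosomes was measured in 5 libraries (3 βNACtes IP, 2 total ribosomes), and the deposited table gives the authors' mean per group in FPKM, with no unit named. FPKM is taken from the values and from Cufflinks 2.2.1, which the submitters' processing notes list with TopHat2 2.0.14, Bowtie2, Bowtie and the build dm3. How reads matching several genes or either strand were treated is not given in the sources used here. A further column holds the authors' own log2 ratio, which was not used. Depth per library is unknown.

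Of 12847 rows, 12711 matched a current symbol by identifier and 37 (among them knon) by locus tag, and 99 matched neither. Exonic lengths, chromosome arms and overlaps come from Ensembl release 115 (BDGP6), a later build than that of the files, so no coordinates are printed. Log2 ratios used a pseudocount of 0.1 FPKM, genes with a mean of at least 1 FPKM and the median as centre. Tests between the groups were foreseen only for a table with a column per library. Named genes are all copies, their partners, the 5 highest and 5 lowest ratios, the 5 highest levels in each column and, of other lists, the 2 highest and 2 lowest ratios. The remaining members were added after their values were seen. Members, pairs and lists were chosen with earlier results of these data known. Scripts were tested on simulated data. Python 3.11.15, numpy 2.4.6, pandas 2.3.3 and matplotlib 3.10.9 were used. Alternatives were another pseudocount, other filters and centres, other classes of copies, and members without overlapping genes.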

Additional observations from a re-analysis of the deposited data

How the results depend on the processing

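No paired analysis, fit with a replicate block or fit leaving out a library was possible, because the table holds 1 mean per group. The deposited values carry no depth, so their precision is unknown. The median log2 ratio of all genes was 0.73 before centring, 1.55 with TPM scaling and 0.25 with upper-quartile scaling.

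The median of the 32 genes (−1.01) was −0.91 with a pseudocount of 1, −1.14 without a filter, −0.87 with a mean of at least 10 FPKM, −0.28 with values as deposited, −0.76 with upper-quartile scaling and −0.50 relative to the same length group. With TPM scaling, which moves all genes by nearly the same amount, it turned to 0.56 and 12 of the 32 genes turned from below to above 0. Of those called lower these were ATPsynbetaL (0.17), ATPsynF (0.19), UQCR-C2 (0.23), UQCR-C1 (0.53) and ATPsynepsilonL (0.54). The other 7, not called, were Cyt-c-p (0.58), blw (0.60), COX6AL (0.83), ATPsynE (0.84), UQCR-14L (1.01), COX4L (1.14) and UQCR-11L (1.53). The counts of 16 lower and 3 higher became 10 and 7 with values as deposited, 4 and 12 with TPM scaling, and 13 and 6 by length, while the share of all genes called lower and higher went from 29.2% and 26.4% to 18.3% and 43.6%, 8.75% and 62.1%, and 27.3% and 25.1%. They are 2 and 1 for the 5 genes found by listed names alone, with a median of −0.99.

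Testis copies minus the other members (1.73) was 1.72 with a pseudocount of 1, 1.91 by length, 1.92 with every symbol ending in L counted as a copy and 1.66 without bb8. Among settings chosen after seeing the data it was 1.38 for genes without exonic overlap, 2.52 in complex IV and 0.95 in complex V. The value for complex V rests on 2 testis copies that went opposite ways, knon (1.24) and ATPsynbetaL (−1.40). The median change over pairs (2.73) was 2.72 with a pseudocount of 1 and 2.66 with 3 pairs added.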

Other observations

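Complex II, which feeds electrons from succinate into the same chain and is outside the rule, had 8 genes with values. Of these, 3 were called lower and 1 higher, against 29.2% and 26.4% of all genes. SdhC had 619 FPKM in total ribosomes and 138 FPKM in the βNACtes IP (−2.90), and SdhB had 88.0 and 35.0 FPKM (−2.06). The copy SdhBL had 11.0 FPKM in total ribosomes and 123 FPKM in the βNACtes IP (2.74). Sdhaf3, an assembly factor, followed with 16.5 and 44.9 FPKM (0.71). Chosen after their values were seen, SdhA, the large flavoprotein subunit, had 59.7 and 154 FPKM (0.64), and its copy SdhAL had 55.4 and 112 FPKM (0.29).

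Of 19 names listed as assembly or inhibitor genes, 11 had values, with a median of −0.68. Among them 5 were called lower and 1 higher, against 29.2% and 26.4% of all genes. Scox (−1.59) and Coa8 (−1.35) were the lowest. bcn92 (2.08), with 6.07 FPKM in total ribosomes and 43.1 FPKM in the βNACtes IP, was the highest, followed by Cox10 (0.14). bcn92 acts in iron-sulfur cluster assembly and ttm50 (−0.13) in protein import, so neither is an assembly factor of these complexes. Of the ADP/ATP carriers, which exchange ATP for ADP across the inner membrane, sesB had 298 FPKM in total ribosomes and 101 FPKM in the βNACtes IP (−2.29), and Ant2 had 176 and 262 FPKM (−0.16). The complex III subunit ox, also outside the rule, had 201 and 230 FPKM (−0.54).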
